A study of Mus musculus with 4 samples.

Results

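The transcripts of 8 transcription factors of the naive pluripotency network, Nanog, Esrrb, Tfcp2l1, Tbx3, Prdm14, Nr0b1, Gbx2 and Nr5a2, were followed cell by cell in mouse embryonic stem (ES) cells that stayed naive or were leaving naive pluripotency. The members were chosen by name, and all 8 of the 46078 genes in the count tables were matched by symbol to an Ensembl identifier. The cells are wild-type mouse ES cells grown in 2i, which blocks the kinases MEK and GSK3 and, by the study's culture methods, also holds the cytokine LIF (the labels name 2i alone), and sorted by forward and side scatter. The small gate takes cells at mitosis exit and in G1, and ungated cells were the control. After sorting, cells were kept for 6 h on laminin in 2i or in N2B27, a medium without these additions in which cells differentiate, and single cells were then sorted for Smart-seq2, which sequences whole transcripts without molecular identifiers. Each of the 4 groups (small and ungated cells in 2i, small and ungated cells in N2B27) is 1 sample of 24 wells, and values given for all groups follow that order. With 1 sample per group no test between groups is possible, so no p-value is given. The 95% intervals are exact Clopper-Pearson intervals over cells that cover counting error only. All 2i cells share 1 plate and lane and all N2B27 cells another, so medium and plate cannot be told apart. The small and ungated cells of a plate carry different row indexes.

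Naive ES cells are held in their state by factors that activate each other's genes, and removal of the inhibitors lets this network come apart. Oct4 and Sox2 form the general pluripotency core, and the factors described here add the naive layer on top of it. Several of them can keep ES cells undifferentiated when they are supplied in excess. Their transcripts are known to vary between ES cells, Nanog's in particular.

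The filter on cells kept 12 of 24 2i small, 22 of 24 2i ungated, 20 of 24 N2B27 small and 21 of 24 N2B27 ungated cells. Kept cells held between 1364155 and 4844170 counts on genes. Median genes detected per cell came to 7603, 9516, 7463 and 8200, and the median share of ERCC spike-ins was 3.47%, 1.28%, 2.45% and 1.14%, so small cells had more spike-in and fewer genes than ungated cells. Of the 6 ES cell markers, Dppa5a had at least 10 counts in every kept cell of the 4 groups, Zfp42 in all but 1 and Utf1 in all but 3 (both 2i small), and Pou5f1 in 8 of 12, 22 of 22, 18 of 20 and 21 of 21. Sox2 reached that count in 8, 13, 14 and 10 cells and Tdgf1 in 7, 22, 8 and 18, so a part of the cells stayed below 10 counts of these markers. Of 6 fibroblast and 5 markers of the 2-cell-like state none reached 10 counts in any kept cell, and each of 7 primitive endoderm markers did so in at most 2 cells of a group. Of 6 trophoblast markers Elf5 did so in no cell, while Tfap2c, which ES cells can also express, reached it in 6, 18, 11 and 16 cells, Gata3 in 0, 4, 2 and 5, Cdx2 in 2, 3, 1 and 0, Krt8 in 1, 3, 0 and 3 and Eomes in 1, 1, 1 and 2. The part of these cells in the results was not tested.

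Whether a cell expresses a factor depended on the count taken as detection. In 10 wells with more spike-in than gene counts, which were dropped by the filter and serve here as a background, members still had counts. Of the 80 values over these wells and members, 52 were 0, 27 lay between 1 and 9, and 1 reached 10. Nanog had a count in 8 of these 10 wells, with a median of 2 and a highest value of 9, and Nr0b1 had one in 7, with a highest value of 5. The exception was Nr5a2, with 78 counts in 1 well. Nearly all of these wells (9 of 10) belong to the 2i small group. Kept cells held such low values too, between 4 cells for Gbx2 and 20 for Nr5a2, so a cell is counted as expressing a factor here from 10 counts, and shares from 1 count are given where they differ. A cell below 10 counts is not shown to lack the transcript.

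Equal means over unlike cells were seen for Tfcp2l1, a factor downstream of LIF and of GSK3 inhibition (ENSMUSG00000026380, chr1:118627945-118685168 on GRCm38). Among ungated cells its mean was 173 normalized counts in 2i and 179 in N2B27, a log2 ratio of 0.05. In 2i, 21 of 22 cells had at least 10 counts (95.5%, interval 77.2 to 99.9), with values from 25.6 to 561 and a median of 164. In N2B27, 10 of 21 cells did (47.6%, interval 25.7 to 70.2), with values from 112 to 1107 and a median of 247. Of these 10, 2 held 829 and 1107 and 8 held at most 369, so the N2B27 mean leans on few cells. The highest cell held 29.5% of the group's normalized counts. The remaining 11 N2B27 cells had at most 3.47 normalized counts, and no cell lay between 3.47 and 112. In 2i ungated cells 10 of the 21 expressing cells lay below 112, at 25.6 to 109. The ungated N2B27 cells were thus split into cells with little or none and cells with much, while the 2i cells filled the range between.

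Small cells were split in both media for Tfcp2l1. At least 10 counts were found in 7 of 12 cells in 2i and in 6 of 20 in N2B27 (30%, interval 11.9 to 54.3). The 7 expressing 2i small cells ran from 79.4 to 497, and the other 5 had at most 7.53. Those 5, apart from 1 with 5.02% spike-in, had 4612 to 5775 genes detected and 11.1% to 40.9% spike-in. The part of cell quality in this split was not tested. In N2B27 small cells 4 cells lay between 430 and 662, and the other 16 had at most 31.6. The mean was 107 in N2B27 small and 156 in 2i small cells, a log2 ratio of −0.54, and the mean over expressing cells was 356 and 266. From 1 count the shares were 10 of 12, 22 of 22, 13 of 20 and 16 of 21, a smaller contrast. With all cells thinned to 1364155 counts, the number of cells with at least 10 counts was 7, 21, 6 and 10, as without thinning. Tfcp2l1 and Tbx3 were singled out by the study partly for their variation in these cells, so their direction is not independent evidence.

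**Figure D1:**
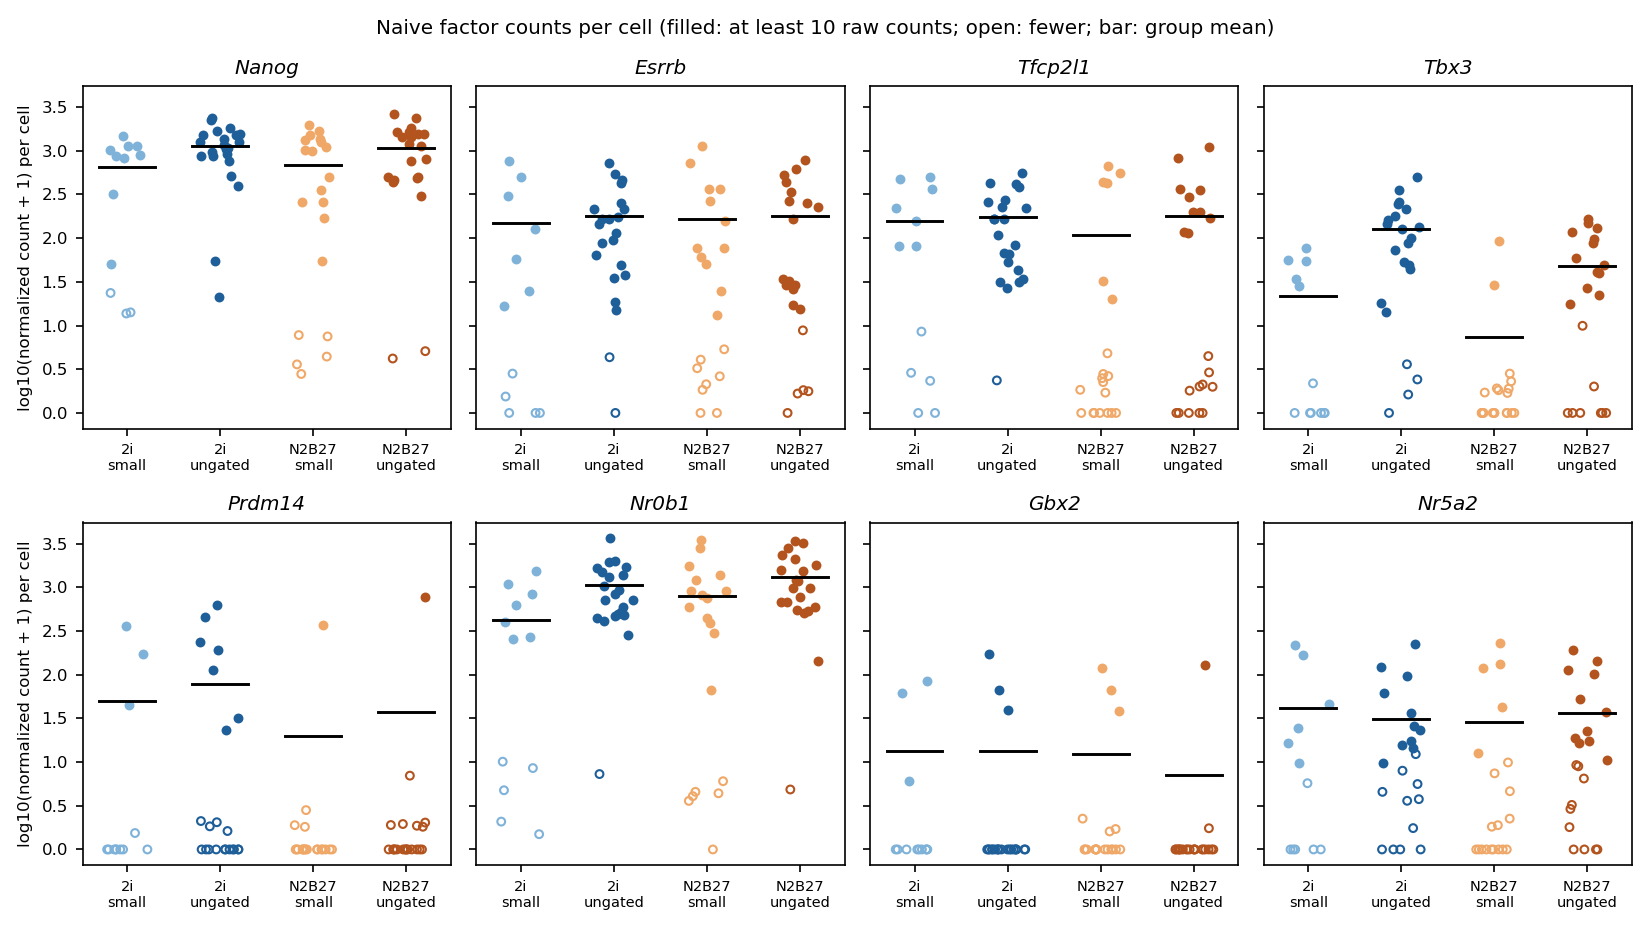
Each point is a kept cell, with its group on the x axis and log10(normalized count + 1) on the y axis, filled where the raw count is at least 10 and open where it is lower, and the bar is the group mean. Tfcp2l1 in N2B27 ungated cells lies in 2 bands, 11 cells at or below 3.47 and 10 at or above 112 normalized counts, around the same mean as in 2i ungated cells.

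Read against all genes, a loss of expressing cells of 25 points or more was not particular to Tfcp2l1. The share of cells with at least 10 counts was lower in N2B27 by at least 25 percentage points, a limit chosen after values were seen, for 2 of 8 members among ungated cells (Tfcp2l1 and Prdm14), beside 16.6% of the 11800 genes whose 4 group means averaged 5 normalized counts or more. No member had a share higher by that much, beside 0.686% of genes. Among the 1510 genes whose ungated means differed by no more than 0.1 on the log2 scale, 145 (9.6%) lost 25 points or more. The change for Tfcp2l1 was −47.8 points, and the share of genes that lost as much was not computed. Among small cells N2B27 had a share lower by 25 points for 3 members, Tfcp2l1, Tbx3 and Nr5a2, beside 8.16% of genes, and higher for none, beside 1.93%.

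Prdm14, a repressor of FGF signalling and of DNA methyltransferases in ES cells (ENSMUSG00000042414, chr1:13113457-13127163), was the other member whose ungated share moved. In 2i it had at least 10 counts in 7 of 22 ungated cells (31.8%, interval 13.9 to 54.9) and in 3 of 12 small cells. In N2B27 it did so in 1 of 21 ungated and 1 of 20 small cells. Those single cells held 763 and 373 normalized counts, 98.7% and 98.9% of all Prdm14 counts of their groups. The log2 ratio of N2B27 to 2i was −1.03 among ungated and −1.32 among small cells, and −5.06 and −4.13 with the highest cell of each group left out. The ungated value lay short of 1 with poscounts size factors (−0.34), fixed limits on cells in place of the plate's own (at least 100000 counts and 4000 genes, −0.83), no filter (−0.73), pooled counts (−0.90) or a pseudocount of 5 (−0.96), and the small one with poscounts (−0.99) or no filter (−0.38). Both N2B27 cells with Prdm14 were called G1. Expressing cells in 2i reached 624 in the ungated and 364 in the small group, so the N2B27 cell at 763 held more than any 2i cell. In 2i ungated cells the CV of Prdm14 was 2.17, at percentile 97.8 of all genes once the trend of CV on mean was taken out.

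Tbx3, a T-box factor that feeds signals of PI3K and MAPK into the network (ENSMUSG00000018604, chr5:119670669-119684724), differed most between gates. In 2i at least 10 counts were found in 18 of 22 ungated and 5 of 12 small cells, with means of 126 and 20.5 normalized counts. In N2B27 they were found in 13 of 21 ungated cells (61.9%, interval 38.4 to 81.9) and 2 of 20 small cells (10%, interval 1.23 to 31.7), with means of 47.6 and 6.35. The log2 ratio of small to ungated was −2.56 in 2i and −2.72 in N2B27. The level in expressing cells moved differently: its mean went from 153 to 49.0 in 2i, a log2 ratio of −1.63, and from 76.1 to 60.0 in N2B27, where it was −0.34. In N2B27 small cells 1 cell held 76.0% of the Tbx3 counts. With spike-in size factors the ratio of small to ungated in 2i was −0.04, and that in N2B27 −4.02. The N2B27 value also rests on the filter, being −0.96 with fixed limits on cells and −0.98 with no filter. A dropped N2B27 small cell with 7532 genes and a mitochondrial share of 4.72%, against a limit of 4.67%, held 460 Tbx3 counts, while the 20 kept cells held 171 in all. An antisense gene, Tbx3os1, overlaps 115 of the 6624 exon bases of Tbx3.

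Between media, ungated cells differed in the level of Tbx3. The share of expressing cells was 81.8% in 2i (interval 59.7 to 94.8) and 61.9% in N2B27 (interval 38.4 to 81.9). This change of −19.9 points fell short of the limit of 25 points, and the intervals overlap. The cells expressing Tbx3 had a median of 131 in 2i and 58.9 in N2B27. The highest 2i cell held 501 and the highest N2B27 cell 165. The log2 ratio of the means was −1.38, and −0.98 with spike-in size factors. Among small cells it was −1.55, and −0.06 with fixed limits and 0.15 with no filter, both of which keep the cell with 460 counts. Of the 8 members, Tbx3 alone had a mean in expressing ungated cells at least 1 lower on the log2 scale in N2B27. Its ratio there, −1.002, lay on that limit. Tfcp2l1 (1.05) and Prdm14 (1.67, from 1 N2B27 cell) were at least 1 higher. The share of all genes past 1 on this measure was not computed. In ungated N2B27 cells Tbx3 followed the number of genes detected, with a Spearman correlation of 0.52, and ran against the spike-in share (−0.58).

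**Figure D2:**
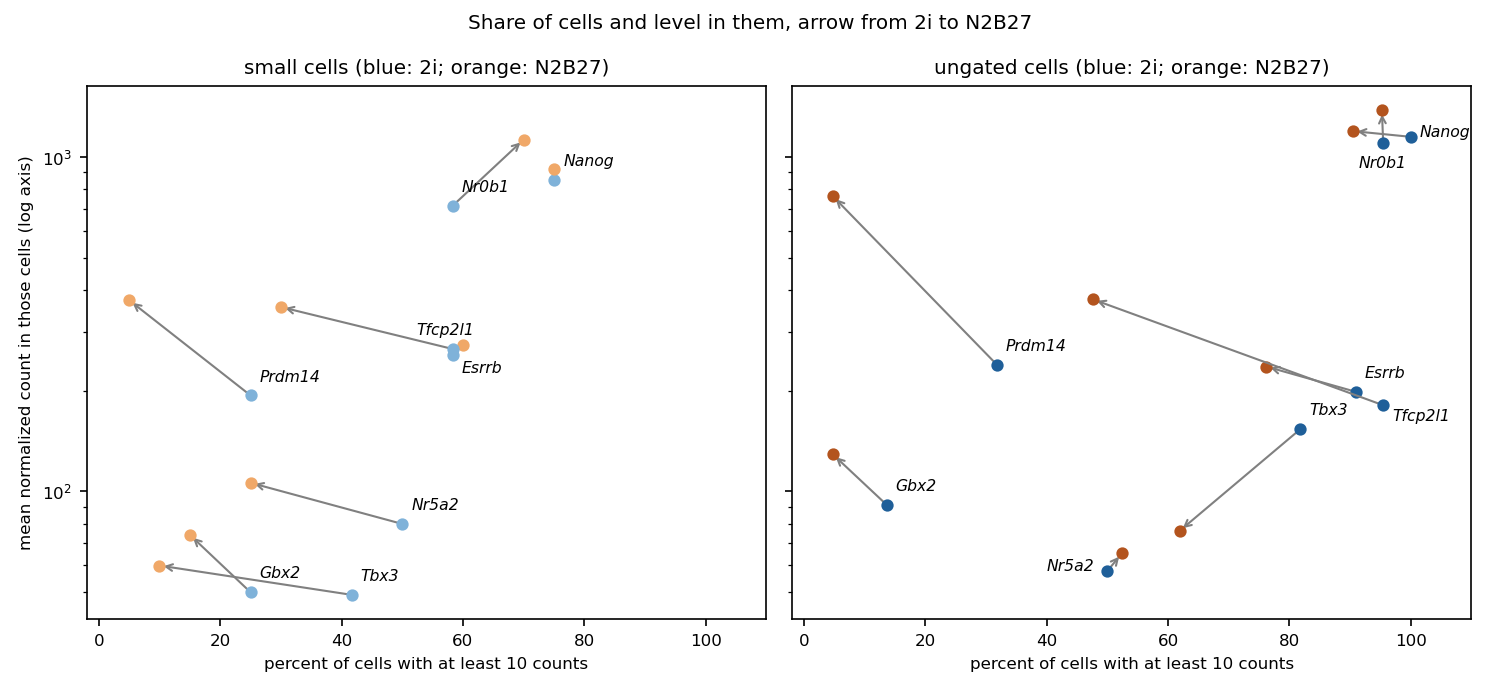
For each factor an arrow leads from 2i to N2B27, with the percent of cells with at least 10 counts on the x axis and the mean normalized count in those cells on a log y axis, for small cells on the left and ungated cells on the right. Among ungated cells the arrow of Tfcp2l1 runs from 95.5% to 47.6% of cells and up from 181 to 375 normalized counts, while that of Tbx3 runs down from 153 to 76.1.

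Nanog, the homeodomain factor at the centre of the network (ENSMUSG00000012396, chr6:122707489-122714633), was the most widely expressed member with Nr0b1. From 1 count it was found in every kept cell of the 4 groups. From 10 counts it was found in 9 of 12 2i small, 22 of 22 2i ungated, 15 of 20 N2B27 small (75%, interval 50.9 to 91.3) and 19 of 21 N2B27 ungated cells (90.5%, interval 69.6 to 98.8). The 5 N2B27 small cells and 2 N2B27 ungated cells below that had at most 6.78 and 4.09 normalized counts, within the counts seen in near-empty wells. In N2B27 ungated cells nothing lay between 4.09 and 301. In 2i ungated cells 2 cells had at most 54.5, and the other 20 between 394 and 2344. The means were 645, 1148, 690 and 1081, a log2 ratio of N2B27 to 2i of 0.10 (small) and −0.09 (ungated), and of small to ungated of −0.83 (2i) and −0.65 (N2B27). With spike-in size factors the first became −2.10 and the third 0.95. In small cells Nanog moved with cell quality: its Spearman correlation with genes detected was 0.77 in 2i and 0.60 in N2B27, with the spike-in share −0.81 and −0.55, and with total counts 0.50 and 0.71. The part of these in its lower small-cell values was not tested.

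The 250 bases before the start of Nanog hold an octamer and a SOX core next to each other, where Oct4 and Sox2 are known to bind together. They are shown because Nanog alone of the 6 members with a promoter in the RefSeq table (GRCm38.p6) held a searched motif.
Nanog, chr6:122707239-122707488, plus strand: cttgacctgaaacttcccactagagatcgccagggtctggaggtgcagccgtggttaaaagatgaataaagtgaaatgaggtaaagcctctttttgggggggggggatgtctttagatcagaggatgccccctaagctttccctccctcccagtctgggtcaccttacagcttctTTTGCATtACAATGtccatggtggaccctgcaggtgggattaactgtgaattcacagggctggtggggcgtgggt
The capitals mark the octamer core (ATGCAAA, here on the opposite strand) and the SOX core (CATTGT, also on the opposite strand), which are 1 base apart and do not overlap. Of 32851 promoters of the same length 4.12% hold the first and 10.7% the second on either strand. A core of the sites of Esrrb and Nr5a2 (AAGGTCA, 4.08% of promoters) and a T-box core (GGTGTGA, 3.33%) were in none of the members' windows. Each match is a run of letters, not a site shown to be bound in these cells.

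Nr0b1, also called Dax1, a nuclear receptor that lacks the usual DNA-binding domain and binds Oct4 protein (ENSMUSG00000025056, chrX:86191764-86195947), was either high or near the background. At least 10 counts were found in 7 of 12 2i small, 21 of 22 2i ungated, 14 of 20 N2B27 small and 20 of 21 N2B27 ungated cells. The 5 other 2i small cells had at most 9.10 normalized counts and the 7 expressing ones at least 255. Those 5 had spike-in shares of 2.64%, 4.31%, 16.7%, 17.1% and 40.9%, and the part of cell quality was not tested. In N2B27 small cells the 6 below the limit had at most 5.04 and the others at least 65.2. Its mean was 419, 1051, 789 and 1313. The log2 ratio of small to ungated was −1.33 in 2i and −0.73 in N2B27, and that of N2B27 to 2i was 0.91 in small and 0.32 in ungated cells. The −1.33 became −0.99 with scran, −0.69 with poscounts and −0.55 with spike-in size factors, and the 0.91 became −0.33 with spike-ins. Nr0b1 was one of the members with the widest spread for its level in the 3 larger groups, at percentiles 98.8, 95.2 and 96.7 of all genes for its CV, in 2i ungated, N2B27 small and N2B27 ungated cells.

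Esrrb, an orphan nuclear receptor held up by GSK3 inhibition (ENSMUSG00000021255, chr12:86361117-86521628), had a mean of 149, 181, 165 and 180 normalized counts. These near-equal means rest on the filter: with fixed limits on cells the log2 ratio of N2B27 to 2i among ungated cells was 3.77 and that of small to ungated in N2B27 −4.06, and with no filter they were 2.82 and −4.02. Both settings add an N2B27 ungated well with 359 Esrrb counts, a mitochondrial share of 25.4% and 27.1% spike-in, whose size factor under fixed limits was 0.00839. At least 10 counts were found in 7 of 12, 20 of 22, 12 of 20 and 16 of 21 cells. In 2i ungated cells the median over all cells was 129, and in N2B27 ungated cells 31.3. The N2B27 ungated cells with at least 10 counts lay in 2 sets, 7 cells from 14.5 to 33.4 and 9 cells from 166 to 781, with none between. In 2i ungated cells no such step was seen: the widest one between expressing cells was from 17.8 to 34.1. On the mean of log2 values, which weighs low cells more, the ratio of N2B27 to 2i among ungated cells was −0.96, in place of −0.00 on the means.

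Nr5a2, an orphan nuclear receptor able to activate Oct4 (ENSMUSG00000026398, chr1:136842571-136960448), was low in most cells. At least 10 counts were found in 6 of 12, 11 of 22, 5 of 20 and 11 of 21 cells, and means were 40.3, 30.3, 27.6 and 35.4. Values just above and below the limit ran into each other, without the step seen for Nr0b1, and thinning left 4, 7, 4 and 8 such cells. The shares of 50%, 50%, 25% and 52.4% have overlapping intervals, the lowest running from 8.66 to 49.1 and the highest from 29.8 to 74.3.

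Gbx2, a homeobox factor downstream of LIF and STAT3 (ENSMUSG00000034486, chr1:89927956-89931179), was the rarest with Prdm14. It had at least 10 counts in 3 of 12, 3 of 22, 3 of 20 and 1 of 21 cells, and 0 counts in 9, 19, 14 and 19 cells. The highest cells held 84.4, 171, 119 and 129 normalized counts, and the N2B27 ungated cell at 129 held 99.5% of its group's counts. The gene D130058E05Rik overlaps 946 of its 2177 exon bases, and reads shared between overlapping genes are left out of the counts.

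**Figure D3:**
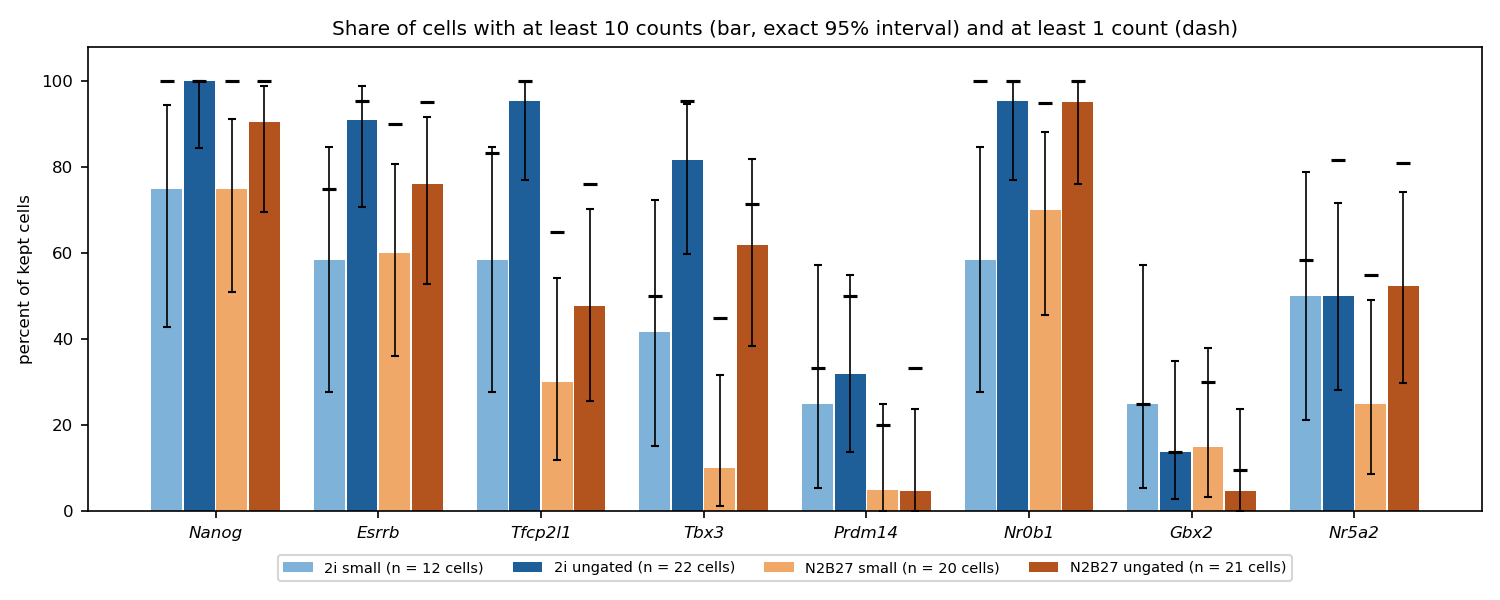
Bars give the percent of kept cells with at least 10 counts of each factor in the 4 groups, with exact 95% intervals over cells, and dashes the percent with at least 1 count. The dash lies far above the bar for Tfcp2l1 in N2B27 small cells (13 cells against 6 of 20) and for Tbx3 in the same cells (9 against 2).

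Divided by exon length, the first 3 of the 8 mean levels were the same factors in every group. Nr0b1 and Nanog stood at the top, at 232 to 726 and 288 to 512 normalized counts per kb, and Nanog was ahead in 2i small cells only. Esrrb came next in all 4 groups, at 24.7 to 29.9 per kb. Prdm14 in 2i ungated cells (29.7) did not differ from Esrrb there (29.9) beyond the spread of cells. Tfcp2l1 stood at 11.4 (N2B27 small) to 19 (N2B27 ungated) and Gbx2 at 2.84 to 5.73. Over the 1231 exon bases of Gbx2 that no other annotated gene shares, its levels were 10.1, 10.1, 9.13 and 5.02 per kb, above Nr5a2 in 3 of the 4 groups and above Prdm14 (7.34) in N2B27 small cells. The lowest was Tbx3 in both small groups (3.10 and 0.959), Nr5a2 in 2i ungated and, by either length, Gbx2 in N2B27 ungated cells.

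In counts of genes past a log2 ratio of 1 on group means, members did not stand out from the genes at large. Small against ungated in 2i, 2 of 8 members were lower (Tbx3 and Nr0b1) beside 32.4% of the 11800 genes, and none was higher, beside 16.8%. In N2B27, 1 was lower (Tbx3) beside 21%, and none was higher, beside 15.8%. From 2i to N2B27, 2 were lower in small cells (Tbx3 and Prdm14) beside 20.8%, and none was higher, beside 27.2%. Among ungated cells 2 were lower, again Tbx3 and Prdm14, beside 14.5%, and none was higher, beside 11.5%. The median over the members was −0.46, −0.69, −0.33 and −0.04 in these comparisons, where the median over all genes was −0.42, −0.11, 0.11 and −0.03. By share of cells, small cells had fewer expressing cells by at least 25 points for 5 members in 2i (Nanog, Esrrb, Tfcp2l1, Tbx3 and Nr0b1), beside 35.2% of genes, and for 3 in N2B27 (Tbx3, Nr0b1 and Nr5a2), beside 18.1%. No member had a share higher by that much, beside 1.24% and 0.72%. The lower number of genes detected in small cells moved with these shares, and its part in them was not tested.

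The number of factors per cell differed between groups, and so did median genes detected (7603, 9516, 7463 and 8200). How many of all genes reached 10 counts per cell was not computed, so the difference is not shown to be particular to the factors. A 2i ungated cell held at least 4 and at most 7 of the 8 factors at 10 counts or more, with a median of 5. An N2B27 ungated cell held 3 to 6, with a median of 4, and an N2B27 small cell 0 to 5, with a median of 3. The 2i small cells ran from 0 to 8 with a median of 5. No 2i ungated cell held fewer than 4, and 13 of 20 N2B27 small cells did. No single combination of factors was common in N2B27 small cells, and 2 of its cells held none at all, both called G1 with 5603 and 6335 genes detected. Their spike-in shares were 5.06% and 5.52%. The 2i small cell with 8 factors had 15712 genes detected, more than any other kept cell. Its spike-in share of 0.0673% was the lowest of all kept cells, and whether its well held more than 1 cell was not tested. The 2i small cell with none had 40.9% spike-in. The 2i small cells with 0 to 2 factors (4 cells) had 4612 to 5775 genes detected and 11.1% to 40.9% spike-in, and those with 4 or more had 7283 to 15712 genes and at most 5.02%. From 1 count the medians were 5, 6, 5 and 6, and a cell of any group held at least 3.

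**Figure D4:**
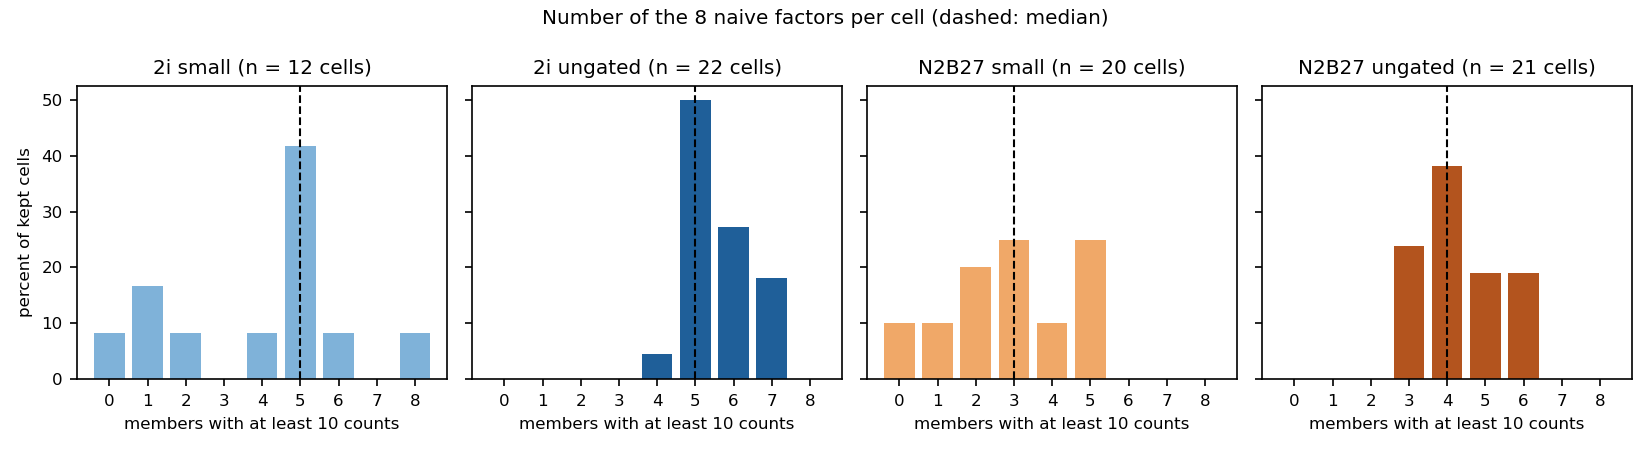
Bars give the percent of kept cells of a group (y axis) with each number of the 8 factors at 10 counts or more (x axis), and the dashed line the median. The 2i ungated cells lie at 4 to 7 factors and the N2B27 small cells at 0 to 5.

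Cell-cycle phase, called from other genes, moved with the number of factors. In 2i the median was 2.5 factors in G1 cells (all 6 from the small gate, median 6526 genes detected), 5 in 12 S cells and 5.5 in 16 G2/M cells (median 9581 genes). In N2B27 it was 3 in 8 G1 cells, 3 in 15 S cells and 4 in 18 G2/M cells. Nr0b1 had at least 10 counts in 1 of 6 G1, 12 of 12 S and 15 of 16 G2/M cells in 2i, and in 4 of 8, 12 of 15 and 18 of 18 in N2B27. Tbx3 was not found at that count in any of 8 N2B27 G1 cells, with an exact interval that reaches 36.9%, and was found in 5 of 15 S and 10 of 18 G2/M cells. Tfcp2l1 in N2B27 was found in 2 of 8, 5 of 15 and 9 of 18, and in 2i in 3 of 6, 9 of 12 and 16 of 16. Phase, gate and genes detected go together in these cells and cannot be told apart.

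Co-expression between the factors was weak in 2i and N2B27 ungated cells. Over the 28 pairs the median Spearman correlation across cells was 0.02 in 2i ungated (n = 22 cells) and 0.03 in N2B27 ungated cells (n = 21), against medians of 0.00169 and 0.00262 between members and all other genes found in at least 50% of the cells. It was 0.19 in 2i small (n = 12) and 0.16 in N2B27 small cells (n = 20), where members against other genes gave 0.16 and 0.04. The cells of a group share a plate, a lane and a range of depth. After the number of genes detected was taken out, the median over small cells was −0.02 in 2i and 0.15 in N2B27.

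The N2B27 small cells held 7 of 28 pairs above the 95th percentile of correlations with other genes (0.44), where 2i small, 2i ungated and N2B27 ungated cells held 2, 3 and 2. Of these 7, 4 included Esrrb: with Tfcp2l1 (0.64), Nr0b1 (0.56), Tbx3 (0.56) and Gbx2 (0.47). The others were Nr0b1 with Gbx2 (0.71), the highest of the group, Nanog with Gbx2 (0.56) and Tfcp2l1 with Nr0b1 (0.44). All 6 N2B27 small cells with Tfcp2l1 at 10 counts or more also had Esrrb and Nr0b1 at that count, while 6 further cells had Esrrb and 8 further cells had Nr0b1 without Tfcp2l1. Likewise the 2 cells with Tbx3 and the 3 cells with Gbx2 all had Esrrb. Esrrb reached 10 counts in 12 and Nr0b1 in 14 of the 20 cells, so such overlap can arise from these shares alone. How often other genes are nested in this way was not computed, and the part of genes detected was not tested. Prdm14 and Nr5a2 were not nested in this way: the 1 cell with Prdm14 had 3 counts of Esrrb and 3 of Nr0b1, and of the 5 cells with Nr5a2, 2 lacked Esrrb and 1 lacked Nr0b1 at 10 counts. In N2B27 ungated cells 3 of the 10 Tfcp2l1 cells lacked Esrrb at 10 counts and 7 had it. Ties among cells at 0 weigh on all correlations with Gbx2, Prdm14 and Tbx3. In N2B27 small cells Tbx3 had 1 or 2 counts in 7 cells besides the 2 expressing ones. Gbx2 had 1 count in 3 cells besides its 3. Members had counts this low in near-empty wells too, and the ranks of Tbx3 and Gbx2 rest in part on them. The 95th percentile came from genes found in at least 50% of the cells, a share that Tbx3 (45%) and Gbx2 (30%) did not reach.

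Of the 28 pairs, 7 were positive and 1 was negative in all 4 groups. How often pairs of a member with another gene kept 1 sign in all 4 groups was not computed. The median of such pairs was above 0 in each group. Nanog with Esrrb was positive in all 4 groups (0.65, 0.43, 0.14 and 0.50), as were Nanog with Tfcp2l1 (0.33, 0.45, 0.42 and 0.28) and Esrrb with Tfcp2l1 (0.15, 0.32, 0.64 and 0.16). Nanog with Tbx3 was the negative pair (−0.01, −0.04, −0.13 and −0.32), with values near 0 in both 2i groups. The highest pair of 2i small cells was Esrrb with Nr5a2 (0.80), and its lowest Tfcp2l1 with Nr0b1 (−0.38). The 2i ungated cells ran from −0.61 (Prdm14 with Nr5a2) to 0.56 (Tbx3 with Gbx2), and the N2B27 ungated cells from −0.41 (Tbx3 with Gbx2) to 0.50 (Nanog with Esrrb). Tbx3 with Gbx2 was thus the highest pair of 1 ungated group and the lowest of the other, and Gbx2 reached 10 counts in 3 cells of the first and 1 of the second. The lowest pair of N2B27 small cells was Nanog with Prdm14 (−0.35), where Prdm14 rests on 1 cell.

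**Figure D5:**
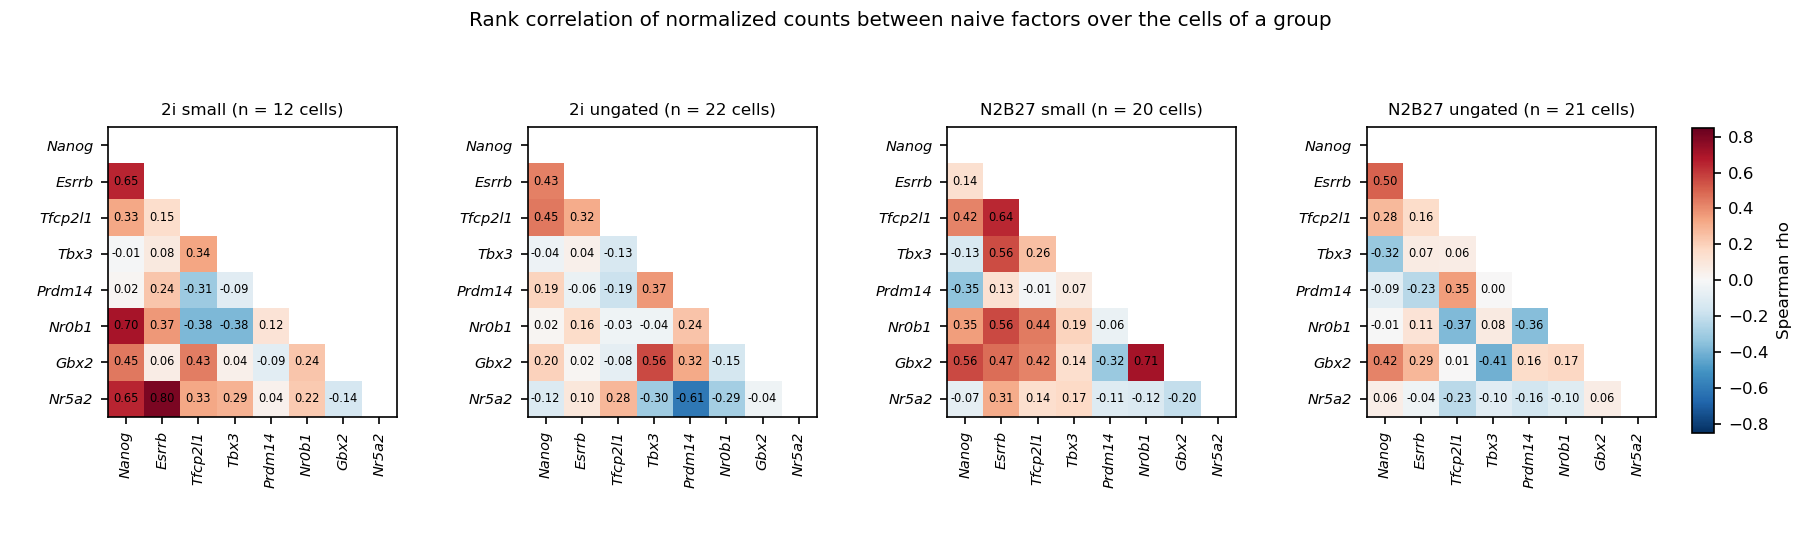
Each panel gives, for 1 group, the Spearman correlation of normalized counts between each pair of the 8 factors over the kept cells, from blue (negative) to red (positive). In the N2B27 small panel the Esrrb column is red for Tfcp2l1, Tbx3, Nr0b1 and Gbx2, from 0.47 to 0.64.

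Cell-to-cell spread was compared with that of the spike-ins at the same mean count. The CV of Nr0b1 was 2.37, 2.31, 2.31 and 1.73 times the spike-in curve in the 4 groups, and that of Nanog 1.98, 1.64, 1.71 and 1.44 times. Esrrb lay at 1.98, 1.32, 1.56 and 1.12 times and Tfcp2l1 at 1.46, 1.11, 1.45 and 1.41 times. Prdm14 lay at 1.56, 1.76, 1.33 and 1.76 times, from 1 expressing cell in each N2B27 group. Its CVs there, 4.43 and 4.52, lay near the largest that 20 and 21 cells can give. Tbx3 (0.50 to 1.07), Gbx2 (0.62 to 1.02) and Nr5a2 (0.59 to 1.13) lay near or below the curve, so that at their level variation beyond the spike-ins was not detectable in most groups. The curve stood at 5.72 for Tbx3 in N2B27 small cells and at 6.26 for Gbx2 in N2B27 ungated cells. Both values exceed the largest CV that 20 or 21 cells can give, so these CVs could not have passed the curve. Spike-in molecules differ from transcripts in length and in reads per molecule, which limits the curve as a measure of technical spread. Among all genes, with the trend of CV on mean taken out, Tfcp2l1 was at percentile 64.6 in 2i ungated and 92.7 in N2B27 ungated cells.

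By rank correlation averaged over the 3 larger groups (63 cells, 6422 genes), the genes most like each member were the following. For Nanog they were Amotl2 (0.54), Necap1 (0.47) and Slc2a3 (0.46). For Tfcp2l1 they were Rabggtb (0.55), Pim1 (0.53) and Gm9762 (0.53), and for Tbx3 Stmn2 (0.55), Ldha (0.53) and Ldha-ps (0.51), of which the last is a pseudogene whose reads may be Ldha's. For Esrrb they were Tpm4 (0.50), Gm7809 (0.50) and Ppp1r7 (0.49), and for Prdm14 Eif4e (0.47), Gm4540 (0.43) and Gm6181 (0.42). For Nr0b1 they were Mrpl50 (0.46), Uba3 (0.45) and Qtrt1 (0.44), for Gbx2 Mymx, Dtx3 and Mul1 (0.47 each), and for Nr5a2 Uxt (0.44), Mrpl45 (0.44) and Peg3 (0.42). No member was among the 3 genes most like another. Only genes with a count in at least 50% of the kept cells of each of these groups were ranked. Tbx3, Prdm14 and Gbx2 did not reach that share and could not appear. How high the top 3 would lie for unrelated genes was not computed.

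Other genes of the network were counted beside all genes. Of 20 naive and core genes, 4 were at least 1 lower on the log2 scale in N2B27 than in 2i among ungated cells and 2 higher, beside 14.5% and 11.5% of all genes, so both counts are near the background. Among small cells 3 were lower and 4 higher, beside 20.8% and 27.2%. Of small against ungated cells, 6 were lower and 5 higher in 2i, beside 32.4% and 16.8%, and 3 and 5 in N2B27, beside 21% and 15.8%. The medians over the list were 0.13, 0.27, −0.55 and −0.43 in these comparisons. Among ungated cells Dppa3, a maternal factor that protects DNA methylation marks, went from 181 to 29.4 (−2.58) and Klf4, a LIF target, from 22.5 to 3.37 (−2.42). Dppa2 went from 120 to 246 (1.03), in 22 of 22 and 21 of 21 cells, and Socs3, a feedback inhibitor of STAT3, from 5.61 to 17.0 (1.44), which rests on 1 expressing cell in each group. Among small cells Sall4 (−2.33) and Tet2 (−2.23) were the lowest in N2B27, and Klf5 (1.96) and Stat3 (3.25, in 2 of 20 cells) the highest. Of small against ungated cells, Stat3 (−4.08) and Socs3 (−2.40, with 1 ungated cell at 10 counts or more) were lowest and Klf2 (1.98) and Sall4 (2.44) highest in 2i, and Socs3 (−2.72), Pecam1 (−2.32), Klf4 (3.44) and Dppa3 (4.23, in 4 of 20 cells) in N2B27.

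Of 18 early differentiation genes 10 were over the minimum mean. In N2B27 3 were at least 1 higher than in 2i among ungated cells and none lower, beside 11.5% and 14.5% of all genes. Among small cells 6 were higher and 1 lower, beside 27.2% and 20.8%, and the medians over the list were 0.55 and 2.38. Etv4, a target of MEK and ERK signalling, went from 2 of 22 to 16 of 21 ungated cells with at least 10 counts and from a mean of 10.8 to 217 (4.21), and from 1 of 12 to 10 of 20 small cells (from a mean of 6.30 to 116). Id1 went from 3.86 to 141 among ungated cells (4.87). Dnmt3b (−0.21) and Lin28a (−0.58) had the lowest ratios there. Among small cells Cdh2 had no count in 2i and a mean of 14.5 in N2B27 that came from 1 cell at 10 counts or more, and Lef1 (−2.51) and Dnmt3b (−0.60) the lowest. Of small against ungated cells 5 of the 10 were lower in 2i, beside 32.4% of all genes, and 4 in N2B27, beside 21%, and none was higher, beside 16.8% and 15.8%, with Dnmt3a (−3.20), Lin28b (−2.37), Lef1 (0.07) and Etv5 (0.18) at the ends in 2i and Id1 (−3.44), Lef1 (−2.90), Lin28a (0.77) and Cdh2 (0.82) in N2B27.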

How the data were processed

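Reads of 96 wells were trimmed with Trim Galore 0.4.4, aligned to GRCm38 (mm10) with GSNAP and counted per Ensembl gene with HTSeq by the authors, per the labels and the study's methods. The deposited values are raw read counts, not normalized, with 1 column per cell. Columns were matched to samples through the authors' list of sequencing runs. All columns were used. Rows for spike-ins (3.85% of counts) and for reads without a gene (23.8%) were kept out of totals. Cells were dropped by limits at 3 median absolute deviations from their plate's median (scater 1.30.1). The limits were lower ones for log counts and log genes and an upper one for mitochondrial share. Counts were divided by DESeq2 1.42.0 size factors from the 1227 genes found in every kept cell. Phases came from cyclone in scran 1.30.0, in R 4.3.3. Doublets were not called. Cells were sorted singly, which does not exclude a well with more than 1 cell. Other steps used Python 3.11.15 with numpy 2.4.6 and scipy 1.17.1.

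Ratios are log2((mean + 1)/(mean + 1)) and understate changes of low genes. Genes with a mean of the 4 group means of at least 5 were the background. Correlations and ratios were tested on simulated counts. All 8 members are named. From each further list the 2 genes with the largest ratio in each direction, for each member its 3 most correlated genes and for each group its highest and lowest pair are given. Wells with more spike-in than gene counts were called near-empty; this definition, the limit of 10 counts as detection in the text and the limit of 25 points were chosen after seeing the data. Members and lists were chosen with earlier results of these data known. Alternatives covered the filter, the normalization, the summary over cells, the pseudocount, thinning, 2 single 2i small cells and, added later, the exon length of genes that share bases. Positions and exon lengths come from GENCODE M21; its gene models may differ from the authors' annotation.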

Additional observations from a re-analysis of the deposited data

Results flagged for a closer look

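Members' log2 ratios of opposite sign in the 2 gates or media are given as values, and the differences were not tested, since each group is 1 sample. Between media Nanog had 0.10 in small and −0.09 in ungated cells, a difference of −0.18, and Esrrb 0.15 and −0.00, a difference of −0.15. Tfcp2l1 had −0.54 in small and 0.05 in ungated cells, a difference of 0.59. Nr5a2 had −0.53 in small and 0.22 in ungated cells, a difference of 0.75. Between gates Nr5a2 had 0.40 in 2i and −0.35 in N2B27, a difference of −0.75.

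Members had counts above 3, the limit that a count of 0 allows, in the near-empty wells. All of these wells entered the comparisons where the filter on cells was left out. The N2B27 ungated one also entered those with fixed limits on cells, with a size factor of 0.00679. The highest was 78 for Nr5a2, then 9 for Nanog and 5 for Nr0b1.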

How the results depend on the processing

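No paired analysis was possible because each group is 1 sample. Members at least 1 lower and higher on the log2 scale were 2 and 0 (small against ungated in 2i), 1 and 0 (the same in N2B27), 2 and 0 (N2B27 against 2i, small) and 2 and 0 (the same, ungated). The first comparison had 1 lower with scran or poscounts size factors, 5 lower with the mean of log2 values, 0 lower and 1 higher with spike-in size factors, and 2 higher without the filter on cells. The second had 2 lower with pooled CPM (Tbx3 and Prdm14) and with fixed limits on cells, where they were Esrrb (−4.06) and Prdm14 (−1.06) and Tbx3 lost its call (−0.96). Without the filter its 1 lower member was Esrrb (−4.02), not Tbx3 (−0.98). It had 3 lower and 1 higher with spike-ins, 5 lower with the mean of log2 values and 1 higher without each gene's highest cell. The third had 1 lower with fixed limits or poscounts, 5 lower with spike-ins, and 1 higher (Nr0b1) without the filter, with poscounts, with the mean of log2 values or without the highest cell. Its 2 lower without the filter were Gbx2 (−1.27) and Nr5a2 (−4.72). The fourth had 1 lower (Tbx3) without the filter, with fixed limits, poscounts, pooled CPM or a pseudocount of 5, and 1 higher (Esrrb) without the filter or with fixed limits; its 2 lower with spike-ins were Prdm14 (−1.73) and Gbx2 (−1.08). Without the filter, Tbx3 in small cells reversed from −1.55 to 0.15 between media. The cause was not tested.

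The median number of members per cell from 1 count was 6, 5 and 6 in 2i ungated, N2B27 small and N2B27 ungated cells, and 5, 3 and 4 from 10 counts, raw or as CPM. After thinning it was 5 in N2B27 ungated cells. From 10 counts it went from 5 to 1 in 2i small cells without the filter, which adds near-empty wells. That setting, and the others run on the limit of 10 counts, were chosen after seeing the data. The number of members above the spike-in curve stayed within its limit in every alternative run. The median correlations moved by no more than the SD over the 28 pairs of a group, 0.24 to 0.31. This limit is wider than each median, so a median could vanish and still pass. The fall in 2i small cells with the number of genes detected taken out, given above, passed in this way.

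Spike-in size factors moved the median of all genes by 1.19, −0.69, −1.65 and 0.07 in the 4 comparisons, and poscounts by 0.55, 0.39, 0.18 and 0.42, and scran by 0.31 and 0.20 in the first 2, so members' directions are relative to that shift. Of 416 single log2 ratios under the alternatives 35 changed sign, 8 of them with spike-in and 7 with poscounts size factors; 1 of the 35 had been past 1, Tbx3 as given above. With spike-ins, small against ungated in 2i went from −0.83 to 0.95 for Nanog, from −0.64 to 0.38 for Prdm14 and from −0.14 to 1.09 for Tfcp2l1. No replicate could be left out, and depth limits what is seen of members below 10 counts.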
